A study of Mus musculus with 3 samples.

Results

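The transcripts of 4 genes were followed in the bisulfite-treated mRNA of mouse embryonic stem cells: Tet1, Tet2 and Tet3, the 3 genes knocked out in these cells, and Tdg. They were chosen by gene symbol, and each was represented by 1 RefSeq transcript among the 13224 named genes of the tables. All 3 samples (replicates 1, 2 and 3) carried the genotype Tet1-/-,Tet2-/-,Tet3-/- on the J1 background and form 1 group, and no cells with intact Tet genes were analysed here. Feeder fibroblasts of mouse embryos supported the culture in medium with serum and ESGRO and were removed by letting them attach, per the labels' protocols, after which polyadenylated RNA was fragmented, converted with bisulfite and sequenced in pairs. The labels give neither the exons deleted nor the number of clones or cultures, so the spread between replicates may be technical.

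TET proteins are dioxygenases that oxidise 5-methylcytosine in DNA stepwise to 5-hydroxymethylcytosine, 5-formylcytosine and 5-carboxylcytosine. TDG, a thymine DNA glycosylase, cuts out the last 2 of these bases, and base excision repair then restores an unmodified cytosine. In embryonic stem cells Tet1 and Tet2 are the main TET genes, while Tet3 is better known from the oocyte and the zygote. A knockout allele can still be transcribed outside the deleted part. The deleted exons are not given, so reads over the Tet genes cannot be placed inside or outside them. The source of these reads was not tested.

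In bisulfite-treated RNA an unmodified cytosine is read as thymine, and a cytosine that stays cytosine is called unconverted. The coverage of a cytosine is the number of reads counted over it. The tables list no cytosine with fewer than 3 reads, so an unlisted cytosine had 0 to 2 counted reads. Reads that fit several transcripts may not all have been counted, as their handling is not given. A cytosine listed in at least 1 library is called known here, and an unlisted one counts as 0 in means over known cytosines. Coverage summed over all cytosines was 151362866, 142608298 and 139884444 in replicates 1, 2 and 3, and 1.53%, 1.45% and 1.41% of these counts were unconverted. The stem cell markers fixed for a check of the label were all listed (12 of 12) and took 0.587% to 0.597% of the coverage. Of 12 fibroblast markers 8 were listed, with 0.0575%, 0.0435% and 0.0357% of the coverage, while Dcn, Lum, Pdgfrb and Postn had no listed cytosine. By mean coverage per known cytosine relative to the library mean, 10 stem cell and 3 fibroblast markers lay above Tet2 (0.245). The 3 were Acta2 (0.775), Col1a2 (0.457) and Col1a1 (0.442). The stem cell markers Nanog (0.212) and Esrrb (0.0364) lay below Tet2. These 2 levels rest on 28 known cytosines each, in listed spans of at most 107 nt and 55 nt, so they describe short stretches only.

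The first bases of the 4 mRNAs are shown because they mark where the coverage of each transcript could have begun. They come from RefSeq (build GRCm38.p6), at bases 31 to 50 after the annotated start of each gene, read 5′ to 3′, and capitals mark the cytosines that were listed in at least 1 library. The stretches lie at chr10:62887275-62887294 (minus strand, Tet1), chr3:133544341-133544360 (minus strand, Tet2), chr6:83441629-83441648 (minus strand, Tet3) and chr10:82629868-82629887 (plus strand, Tdg).
Tet1: gtctgtattcgcccctggac
Tet2: ctagagaacagacgtCaaaC
Tet3: gctggccgccgcctctgcag
Tdg: gccgcggtgatgtagcagcg

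Positions 46 and 50 of Tet2 were the only listed cytosines within the first 50 bases of the 4 genes, with 3 and 4 reads in replicate 1 and none listed in replicates 2 and 3. These 50 bases hold 16 cytosines in Tet1, 19 in Tet2, 19 in Tet3 and 11 in Tdg. Among all genes with 1 RefSeq accession, 32.5% of the cytosines of the first 50 bases were listed. The annotated start may differ from that of the authors' transcript model.

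Tet1, the founding member of the family, was listed in a single short window. NM_001253857.1 had 16, 19 and 18 listed cytosines in replicates 1, 2 and 3, all between positions 4666 and 4774, and none elsewhere in the transcript. The window was 109 nt wide. Coverage reached 12, 17 and 16 reads at position 4713 and declined on both sides until it fell under the listing minimum. Of the 21 known cytosines 15 were listed in all 3 libraries, and 4 at the ends of the window in a single one, at positions 4666 and 4671 in replicate 3 and at 4771 and 4774 in replicate 2. In total the window held 117, 163 and 120 counts.

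The position and the width of this window were set beside other genes, with both bounds taken from Tet1 itself. Of 10333 genes with 1 RefSeq accession in the annotation used for names, 26 had no listed cytosine before position 4666 and a listed span of at most 109 nt. A span of at most 109 nt at any position was found in 7.30% of these genes, and a first listed cytosine at 4666 or later in 0.358%. Of the 2891 genes with 2 or more accessions, 35.1% had a span of at most 109 nt. That annotation is later than the authors' transcript set, whose newest listed accession is NM_001305441, and accessions withdrawn in between are not known here.

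Tdg had the deepest coverage of the 4 genes, but it was listed only within its first 293 positions. NM_172552.3 had 76, 74 and 73 listed cytosines, from position 60 to 293, 285 and 282, and none further along the transcript. Coverage had 2 summits in each library. It rose from 10, 7 and 10 reads at position 60 to a first summit of 101, 117 and 87 reads at position 112. It then fell to 46 and 36 reads at position 143 in replicates 1 and 2, and to 46 reads at positions 133 and 137 in replicate 3. The second summit was the higher one, with 206, 207 and 198 reads at position 192, and 200 reads at position 193 in replicate 3. From there it declined to 61, 62 and 62 reads at position 221 and 4, 3 and 4 reads at position 282. Across the 73 cytosines listed in all libraries, coverage in pairs of libraries had a Pearson's r of 0.98 to 0.99 and a Spearman's rho of 0.97 to 0.99. These cytosines share reads and base composition, so the values describe likeness only.

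A second Tdg transcript, NM_011561, had no listed cytosine in any library, and one more accession has a number above the newest one listed. Genes with several accessions were listed over shorter stretches than genes with 1, and how the authors assigned reads that fit several transcripts is not known here. Of the 2891 listed genes with 2 or more accessions that could have been in the authors' set, 71.0% had a listed span of at most 300 nt, with a median of 158 nt. Of the 10333 genes with 1 accession, 9.90% did, with a median of 2030 nt. The span of Tdg, 234 nt, lies above the median of the genes with several accessions and far below that of the others. The mouse genome also carries Tdg pseudogenes (Tdg-ps and Tdg-ps2 in the annotation), so the origin of Tdg reads is uncertain.

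**Figure D1:**
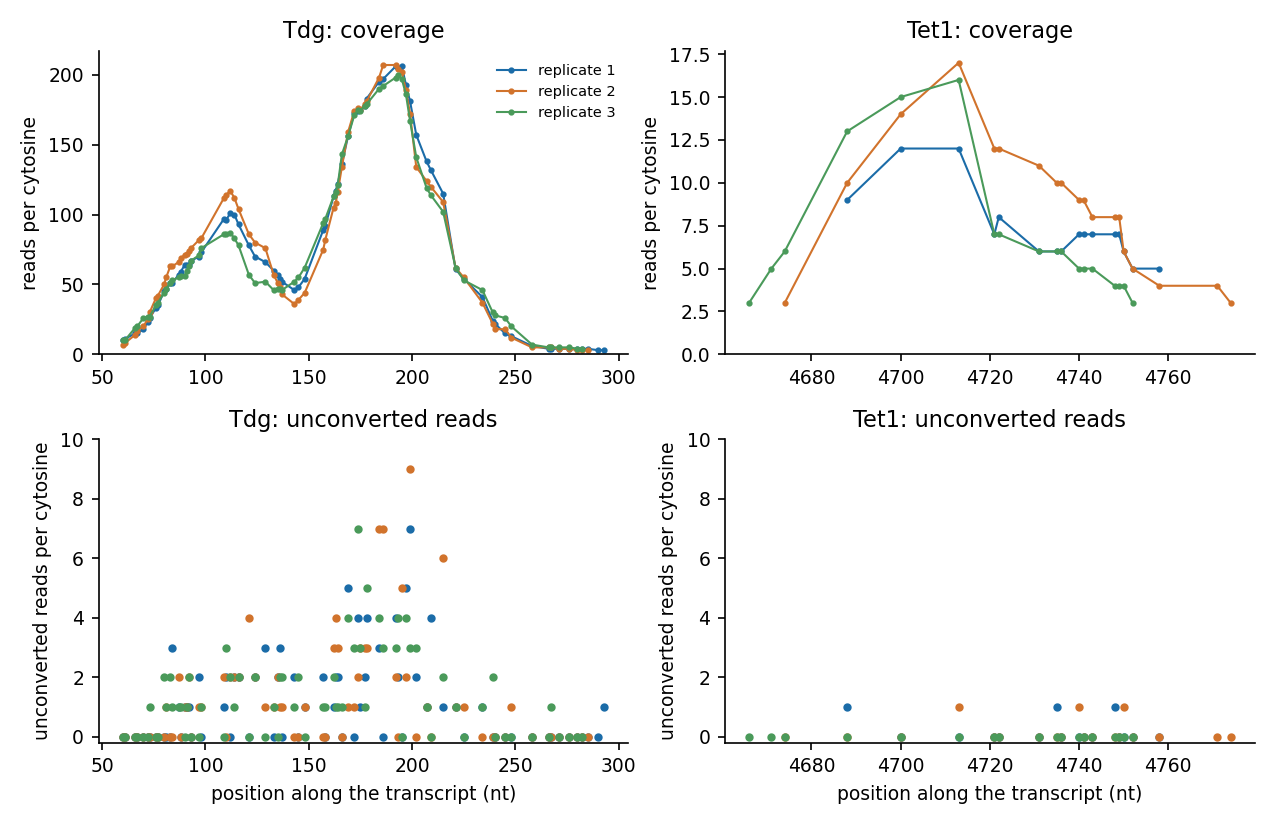
Coverage (upper panels) and unconverted reads (lower panels) at each listed cytosine of Tdg (left) and Tet1 (right), against the position along the transcript in nt; each point is 1 cytosine in 1 of the 3 libraries. Tdg has summits at or next to positions 112 and 192, Tet1 a single one of 12 to 17 reads, and unconverted reads are few in both.

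The coverage of Tet2 was highest in separate blocks along a listed span of 9022 nt. NM_001040400.2 had 719, 652 and 632 listed cytosines of 939 known ones, and its listed span ran from position 46 to 9067. The first 500 positions had a mean coverage of 26.1, 20.4 and 17.2 reads per known cytosine. Positions 501 to 3500 had 1.87, 1.94 and 1.73 reads, so the 2 stretches did not overlap in any library. Between 5501 and 7000 the mean was 15.1, 13.8 and 12.0 reads. It was 3.24, 5.14 and 1.90 reads from 7001 to 8000, and 14.3, 15.3 and 15.8 reads from 8001 to 8500.

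These blocks were drawn after the values in bins of 500 positions had been seen, and they are a description. The deepest cytosine was at position 326 in replicate 1 (96 reads) and at position 8328 in replicates 2 and 3 (78 and 83 reads). Among cytosines listed in all 3 libraries (n = 430) coverage had a Pearson's r of 0.91 to 0.94 between libraries, and these cytosines share reads.

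The contrast between the first 500 positions of Tet2 and the next 3000 was large beside other long transcripts. Over the 3 libraries together the ratio, a measure chosen after the bins had been seen, was 11.5. Of 245 transcripts with a mean coverage and a listed span within about 1.5 times those of Tet2 and at least 20 known cytosines in both stretches, none reached it. Their median ratio was 1.06 and the highest was 6.47. Within its listed span, the longest stretch of Tet2 without any listed cytosine ran between positions 1212 and 1882 (669 nt), inside the poorly read block. In single libraries it measured 801, 802 and 748 nt. Of 258 transcripts of like coverage and span, 20.2% had a stretch at least as long. Where only cytosines with at least 5 reads in some library were counted, the longest stretch of Tet2 was 1646 nt, and the like transcripts were not measured at that minimum.

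Per known cytosine, Tet3 was the most thinly read of the 4 genes, while Tet1 had the fewest counts in total. NM_183138.2 had 448, 344 and 347 listed cytosines of 636 known ones, from position 276 to 10570, with a median of 4 reads per listed cytosine in each library. Only 169 cytosines were listed in all 3 libraries, and 302 were listed in a single one. Its deepest cytosine was at position 7628 in all 3 libraries, with 29, 27 and 26 reads.

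Reads over Tet3 lay mostly in the later part of the transcript. The mean coverage per known cytosine was 3.02, 1.97 and 1.54 reads up to position 5500 and 6.05, 4.71 and 5.32 reads from 5501 to 9000. The later block was higher in each library. Beyond position 9000 it was 1.25, 2.25 and 0.923 reads. Cytosines 3′ of the midpoint of the listed span (position 5423) had 1.77, 2.20 and 3.03 times the coverage of those 5′ of it, a mean ratio of 2.33 ± 0.640 (SD, n = 3). With the libraries added together the ratio was 2.20, and 2.91% of 103 transcripts of like coverage and span reached this value (median 0.938). In Tet2 the same ratio was 1.33, 1.47 and 1.39. With the libraries added together it was 1.39, a value that 16.7% of 258 transcripts of like coverage and span reached (median 0.88). Without the first 500 positions, a choice made after seeing the data, it was 3.44 ± 0.133 (SD, n = 3). That value was not set beside other transcripts.

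Tet3 also had the longest gap between listed cytosines, where the unlisted ends of each transcript are not counted. No cytosine was listed between positions 1154 and 2560 in any library, a stretch of 1405 nt, and in single libraries it measured 1706, 1420 and 1709 nt. A stretch at least as long was found in 19.4% of the 103 transcripts of like coverage and span, whose median was 885 nt. A second gap of 744 nt lay between positions 5294 and 6039. At these depths a gap cannot be told apart from a stretch with 1 or 2 reads per cytosine or with few cytosines, because the transcript sequence was not used here.

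**Figure D2:**
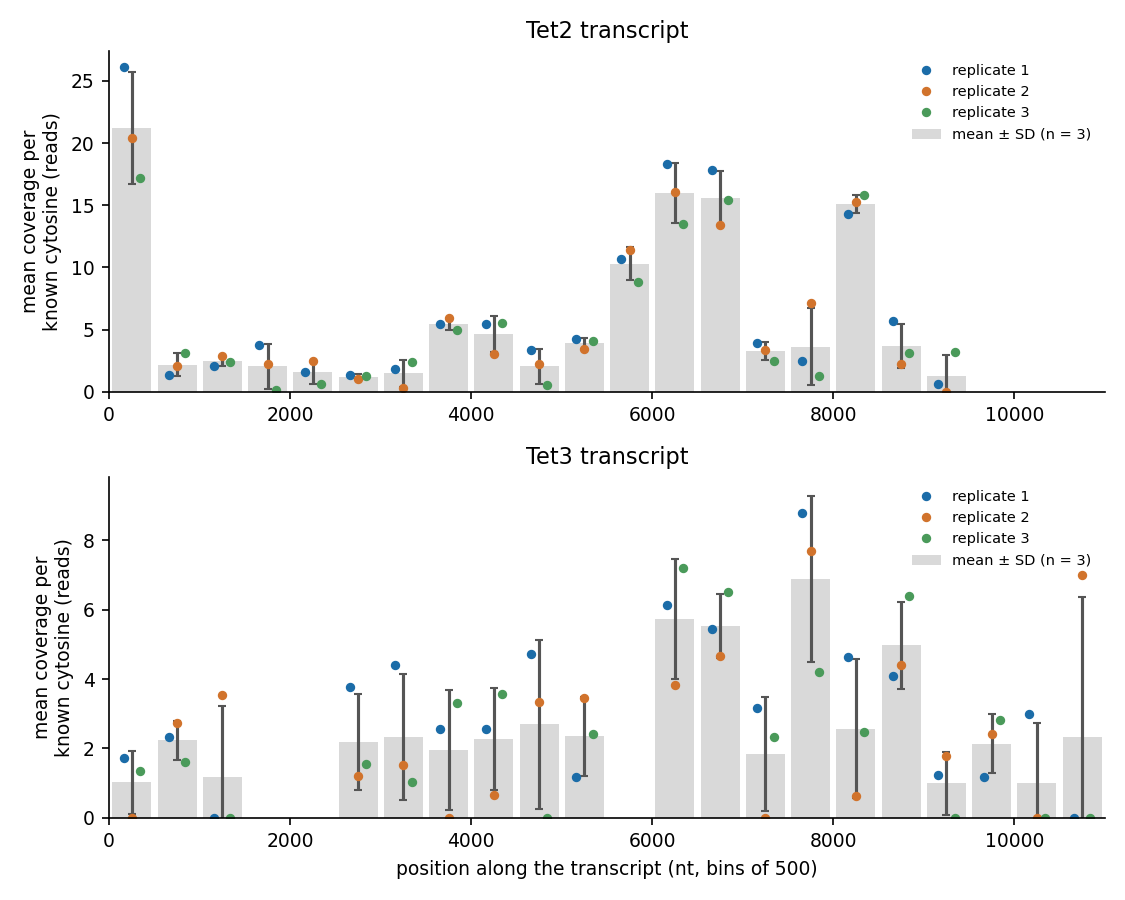
Mean coverage per known cytosine in bins of 500 positions along the Tet2 and Tet3 transcripts (y axis in reads, x axis in nt); bars are the mean of 3 libraries with SD, cut off at 0, and points are the libraries. Tet2 is high in the first bin, from 5501 to 7000 and from 8001 to 8500, and Tet3 from 6001 to 9000 with lower bins between.

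To set the 4 genes on one scale, the mean coverage per known cytosine was divided by the mean over all known cytosines of the library (scaled coverage, a level per cytosine). Tdg had 2.27, 2.44 and 2.37, Tet2 had 0.264, 0.248 and 0.223, Tet1 had 0.164, 0.242 and 0.182, and Tet3 had 0.127, 0.103 and 0.105. The values of Tet1 and Tet2 overlapped, and those of the other neighbours in this order did not. Among 15021 transcripts, the mean coverage of Tdg lay at the 94.9th percentile, Tet2 at the 56.0th and Tet3 at the 35.2nd, while Tet1, with 6.35 reads per known cytosine, lay at the median of 6.35. The scale averages only over the cytosines that were listed, so Tet1 stands for 109 nt and Tdg for 234 nt of their transcripts. In bulk samples a low level cannot be told apart from a high level in fewer cells.

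Unconverted reads were rare in all 4 transcripts. Tet1 had 3 unconverted of 117 counts in replicate 1, 3 of 163 in replicate 2 and 0 of 120 in replicate 3, where a count of 0 allows a share of up to 2.50%. They lay at 6 different cytosines, 1 read each. Over the cytosines with at least 10 reads alone, the mean share of Tet1 was 0.347% ± 0.601 (SD, n = 3), against 1.47% ± 1.32 over all. The lower value rests on 1 unconverted read, at position 4713 in replicate 2. At this depth no difference from the library could be detected (95% Wilson interval of replicate 1, 0.876% to 7.27%).

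Tet2 had 150 unconverted counts of 8416 in replicate 1, 98 of 7476 in replicate 2 and 74 of 6590 in replicate 3, or 1.78%, 1.31% and 1.12%. Replicate 1 lay above the share of its library and replicates 2 and 3 below theirs, with a mean of 1.41% ± 0.340 (SD, n = 3) against 1.46% ± 0.0643 in all other transcripts. The difference was smaller than the spread. The scaled coverage of Tet2, the fibroblast markers' share of coverage and the library-wide unconverted share were each highest in replicate 1 as well. Their part in the Tet2 values was not tested.

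Within Tet2 the first 500 positions had an unconverted share of 2.38%, 1.80% and 1.40%, and the block from 5501 to 7000 had 1.79%, 1.14% and 0.912%. The first 500 positions were higher than this block in each library, and the difference was not tested. The Wilson intervals of these blocks overlapped in each library (in replicate 1, 1.80% to 3.13% against 1.40% to 2.29%), which is not a test. In replicate 1 the interval of the first 500 positions lay above the library share of 1.53%. In replicates 2 and 3 it included the library share. The block from 8001 to 8500 had 1.05%, 1.20% and 1.48%, so in replicate 3 it lay above the first 500 positions. Over all transcripts the first 500 positions had 1.58%, 1.49% and 1.44%, and later positions 1.51%, 1.43% and 1.39%.

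Tet3 had 38 unconverted counts of 2752, 27 of 2104 and 30 of 2102, a mean share of 1.36% ± 0.0735 (SD, n = 3). Tdg had 84 of 5873, 95 of 5932 and 93 of 5668, a mean share of 1.56% ± 0.112 (SD, n = 3). Tdg was below its library in replicate 1 and above it in replicates 2 and 3, and Tet3 was below in replicates 1 and 2 and above in replicate 3. With 3 libraries the smallest p of an exact sign-flip test is 0.25, so none was run. Each read is counted at every cytosine under it and PCR copies cannot be recognised, so all intervals and zero-count limits cover counting error only.

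**Figure D3:**
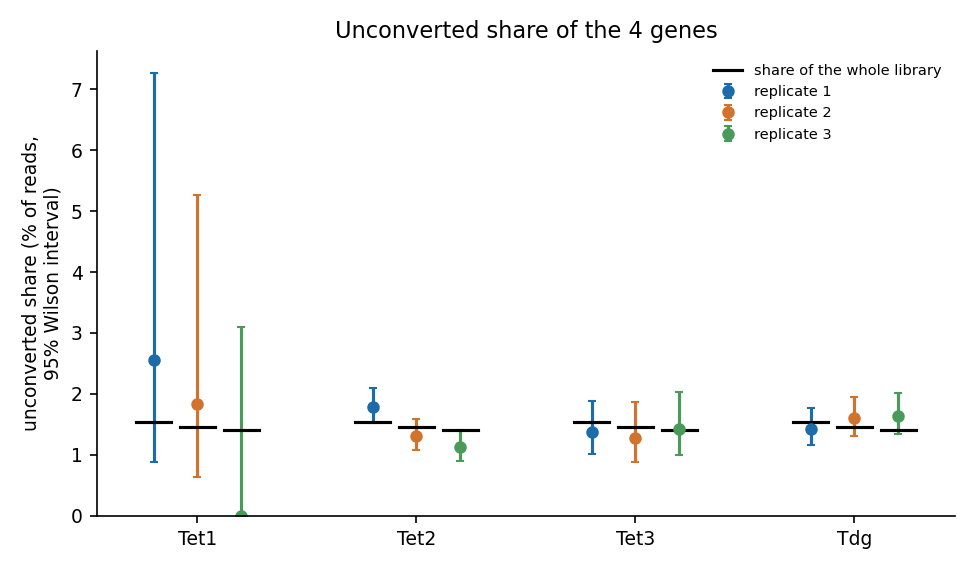
Unconverted share of the reads over each gene (y axis, %) in each library with its 95% Wilson interval; black bars mark the share of the whole library. Tet2, Tet3 and Tdg lie between 1.12% and 1.78%, while the intervals of Tet1 reach 7.27%.

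Single cytosines were then tested for an unconverted share above that of their library. A cytosine was testable with at least 10 reads in all 3 libraries. A one-sided exact binomial test was run per library over all 1639820 testable cytosines, Fisher's method joined the 3 p-values of a cytosine, and the Benjamini-Hochberg adjustment covered all of them. A candidate had an adjusted p below 0.05, a mean share of 10% or more and, in each replicate, a higher share than the library. Tet1 had 2 testable cytosines, Tet2 167, Tet3 30 and Tdg 64.

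None of these 263 was a candidate, against 0.0473% of all testable cytosines, so a count of 0 is near the background. None had an adjusted p below 0.05 at any level, against 0.499% of all. An unadjusted combined p below 0.05 was reached by 4 (1.52%), against 3.32% of all. When the highest of the library p-values was tested instead, the 4 genes also had 0 candidates. That count could not have risen, because no testable cytosine of the 4 genes reached the minimum mean share of a candidate.

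The 4 lay in Tet2 and Tdg. Position 331 of Tet2 was unconverted in 6 of 79, 4 of 50 and 1 of 42 reads, a mean of 5.99% ± 3.13 (SD, n = 3; adjusted p = 0.0639 in the combined exact binomial test). The share was above that of the library in all 3 replicates. By the same exact test its adjusted p was 0.0386 without replicate 3, 0.566 without replicate 2 and 1.0 without replicate 1. Position 326, 5 nt away and read in part by the same molecules, had 5 of 96, 3 of 75 and 1 of 48. Position 174 had 2 of 18, 2 of 22 and 1 of 15, the highest mean share of any testable cytosine in the 4 genes at 8.96% ± 2.23 (SD, n = 3; adjusted p = 0.674, combined exact binomial test).

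Position 199 of Tdg was unconverted in 7 of 181, 9 of 172 and 3 of 167 reads, or 3.63% ± 1.73 (SD, n = 3; adjusted p = 0.116, combined exact binomial test). It lies on the flank of the second summit of Tdg, and its share was above that of the library in all 3 replicates. The highest mean share of a testable Tdg cytosine was 3.96% ± 1.75 at position 136, and position 124 had 3.09% ± 0.740 (SD, n = 3 for each). In Tet3 the highest was 6.94% ± 2.65 at position 6757, from 1 of 19, 2 of 20 and 1 of 18 reads, with an unadjusted combined p of 0.0516 in the exact test.

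The genes around TET and TDG were read with the same measures, from a list of 39 partners of which 36 had a listed cytosine. Lig3, Ogdh and Wdr76 had none in the tables used here. The median scaled coverage of the listed partners was 0.939, against 0.221 over all named genes, and 26 of the 36 lay above Tet2. The list holds genes with several accessions, whose levels rest on short stretches.

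The partner list held 7 other DNA glycosylase genes, and all 7 had listed cytosines. Smug1, Neil1, Neil2, Mbd4 and Neil3 had a scaled coverage of 0.134 ± 0.0266 to 0.239 ± 0.00682, in the range of the Tet genes. Nthl1, which removes oxidised pyrimidines, and Ung, which removes uracil, had 1.21 ± 0.0686 and 1.24 ± 0.0884 (SD, n = 3 for each). All 7 lay below Tdg. By the distance of log2 scaled coverage over the 3 libraries, the partner nearest to Tet1 was Neil2, to Tet2 Neil3, to Tet3 Smug1, and to Tdg the DNA ligase gene Lig1 with 2.40 ± 0.0663.

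The highest partners were Sumo2 with 6.33 ± 0.0432, which encodes a small protein modifier that TDG can carry and bind, Parp1 with 5.37 ± 0.139, a sensor of DNA breaks, and the stress-response gene Gadd45a with 2.53 ± 0.0700 (SD, n = 3 for each). The lowest were Apobec1, a cytidine deaminase gene, and the CXXC zinc finger gene Cxxc4, both listed in replicate 2 alone, followed by Apobec2 with 0.0376, 0.0946 and 0.0592. TET enzymes use 2-oxoglutarate as a co-substrate. Among the listed partners of its metabolism, Idh2 had 2.09 ± 0.100, Idh3a 0.873 ± 0.0113 and Idh1 0.755 ± 0.0854 (SD, n = 3 for each). Oga, which removes the sugar that the TET partner OGT adds to proteins, had 2.39 ± 0.159.

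Candidate cytosines were found in 4 of the partners, 5 among 8303 testable ones (0.0602%, near the background of 0.0473%). Position 3306 of Lin28a, which binds RNA and blocks let-7 maturation, had 25.7% ± 3.86, and position 1428 of Xrcc1, a scaffold of base excision repair, 23.0% ± 6.01 from 24 of 103 reads. Oga had 12.7% ± 4.73 at position 149 and 13.5% ± 8.73 at position 838. Position 3120 of Parp1 had 19.9% ± 20.4, a spread as wide as its mean (SD, n = 3 for each). Among partners listed in all 3 libraries, Sin3a, a corepressor scaffold, had the highest unconverted share over all reads, 2.04% ± 0.0791 (SD, n = 3) from 75 known cytosines of 3 transcripts.

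**Figure D4:**
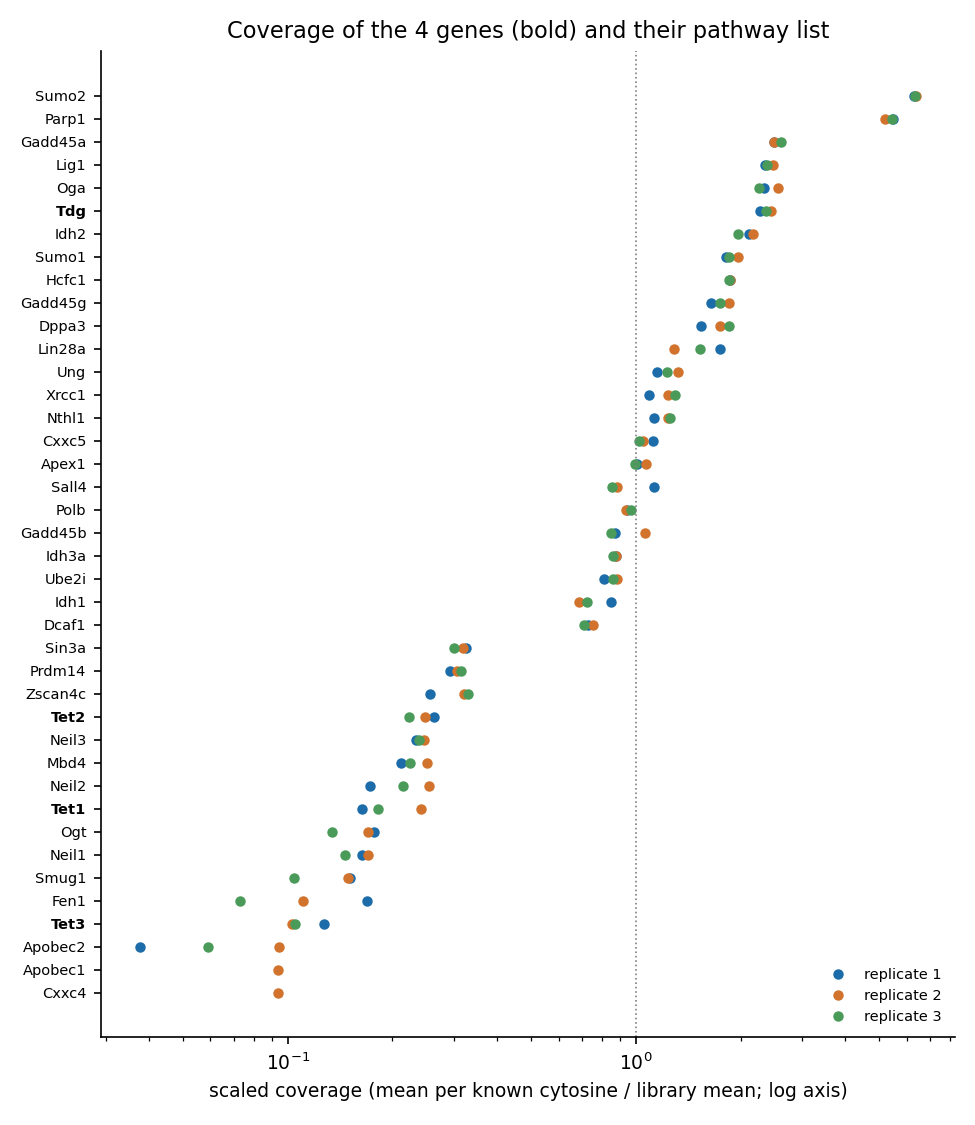
Scaled coverage (x axis, mean per known cytosine divided by the library mean, log axis) of the 4 genes, in bold, and the 36 listed partners, ordered by mean; points are the 3 libraries, points at 0 are left out, and the dotted line marks the library mean. Tdg stands near Oga and Lig1, and the Tet genes stand near the glycosylase genes Neil2, Neil3 and Smug1.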

How the data were processed

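BSMAP and build mm9 are named in the submitters' processing notes; version, counting step and annotation: not given in the sources used here. For every listed cytosine of a RefSeq mRNA the authors deposited the coverage as a raw count of reads, together with the fraction of these that stayed unconverted. Their product was whole (within 1e-06) at 100% of the cytosines and was taken as the unconverted reads. No listed coverage was below 3. Positions are 1-based: 81.7% of listed positions 2 to 49 in genes with 1 accession were a cytosine in the RefSeq start windows (GRCm38.p6), against 28.7% and 29.0% when shifted by 1. Accessions without version were matched to symbols for 14932 of 15021 transcripts, for names only. Depth per library is given above; at the minimum coverage of 10 reads a zero count allows a share of 30%.

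The test was tried on simulated reads drawn from the binomial model that it assumes. Their raised shares lay above those of the named cytosines of the 4 genes. This trial cannot show how the test behaves on real reads or at such low shares. Alternatives were other coverage and share minimums, the highest p-value, other averages and each replicate left out. Python 3.11.15, numpy 2.4.6, pandas 2.3.3, scipy 1.17.1 and matplotlib 3.10.9 were used. The 4 genes, the lists and the tests were chosen with earlier results of these data known. Named were the 4 genes; their cytosines with an unadjusted p below 0.05 or among the 3 highest shares; and partners with a candidate, with the 3 highest or lowest levels, or nearest to one of the 4. Other names and blocks were chosen after their values were seen. 1 gene of the partner list is not reported here.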

Additional observations from a re-analysis of the deposited data

How the results depend on the processing

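The count of 0 candidates in the 4 genes held under every alternative run. It could not have risen with a minimum of 20 reads, a minimum share of 20% or the highest p-value. In the main setting no testable cytosine of the 4 genes had a mean share above 8.96%, and a candidate needed 10%. Position 331 of Tet2 passed the adjusted p of the combined exact binomial test at a coverage minimum of 20 reads (0.0414, where fewer cytosines were tested). It also passed without replicate 3, in both cases at a share under 10%. Over all transcripts the 775 candidates became 490 at a minimum of 20 reads, 7694 without a minimum share, 87 at a minimum of 20%, 109 with the highest p-value, and 754 to 826 with a replicate left out. Scaled coverage of Tet1, Tet2, Tet3 and Tdg was 0.841, 0.529, 0.397 and 8.10 by medians. Over listed cytosines alone Tet2, Tet3 and Tdg had 0.288, 0.157 and 2.02, and Tet3 had 0.135 with unlisted cytosines at 2 reads. The order Tdg, Tet2, Tet3 stayed the same under these, and Tet1 passed Tet2 by medians. Counting only cytosines with at least 5 reads, the longest gap was 1646 nt in Tet2 and 1704 nt in Tet3. With a replicate left out it was 669 to 776 nt and 1405 to 1701 nt. The 3′ to 5′ ratio of Tet2 was 1.52 with the span split in 3 and the middle left out, 3.44 without the first 500 positions (a choice made after seeing the data) and 1.36 to 1.43 with a replicate left out, that of Tet3 1.99 to 2.62. The unconverted share with a replicate left out was 0.920% to 2.20% in Tet1, where 0 to 3 counts per library decide it and cytosines with at least 10 reads gave 0.347%, 1.22% to 1.55% in Tet2, 1.33% to 1.40% in Tet3 and 1.52% to 1.62% in Tdg. No other cause of these shifts was tested. No paired analysis was possible because the samples form 1 group.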
